A study of Mus musculus with 18 samples.

Results

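U4, U5 and U6 small nuclear RNA (snRNA) copies of the mouse genome were examined in extracellular vesicles (EV) and in the dendritic cells (DC) that released them. Copies were chosen from the count table by annotation, length and total read count. They are genes of type snRNA of 102 to 110 bases (U6-length), 112 to 120 bases (U5-length) or 138 to 147 bases (U4-length) with at least 10 reads summed over all 18 libraries. This gave 274 of the 1384 snRNA genes in the table, of which 253 were U6-length, 13 U5-length and 8 U4-length. A further 412 U6-length, 28 U5-length and 22 U4-length genes had no read at all, and 124, 4 and 3 had 1 to 9 reads. At the threshold itself, 7 chosen copies had exactly 10 reads and 4 excluded copies had exactly 9.

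DC were grown with GM-CSF from the bone marrow of C57bl/6 mice of 8 to 12 weeks. Control cultures received no stimulus, LPS cultures received 1 µg/ml LPS, which activates DC, on day 12 for 24 h, and VitD3 cultures received 10 nM VitD3, which makes DC tolerance-promoting, from day 2 onward for 12 days. Cells of all groups were collected on day 13 and kept for 20 h in EV-depleted medium, from which EV were purified on sucrose gradients. Small RNA was sequenced from EV (control-EV, LPS-EV and VitD3-EV) and from the corresponding cells (control-DC, LPS-DC and VitD3-DC), with n = 3 biological replicates each. Cultures are whole populations, so fewer cells of a type cannot be told apart from less RNA per cell, and a share of reads gives no amount of RNA per vesicle.

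Introns are removed from pre-mRNA by the spliceosome, whose core is built from snRNA bound to proteins. U4 and U6 base-pair with each other and join U5 in the tri-snRNP. On activation U4 is released, the ACAGAGA box of U6 pairs with the start of the intron and U6 forms the catalytic centre, while the loop of U5 holds the exon ends. U6 is made by RNA polymerase III and stays in the nucleus, whereas U4 and U5 are made by RNA polymerase II and carry a binding site for the ring of Sm proteins. All 3 RNAs have many scattered gene copies in mammals, many of which are pseudogenes.

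The coordinates of 274 of 274 copies were the same in GENCODE M21 on GRCm38 (mm10), the build of the count table, whose transcripts gave the sequences. Among U6-length copies, Gm25829 (chr1:54249102-54249208, minus strand) has the sequence of the named gene Rnu6, and Gm22633 (chr1:12374936-12375042, plus strand) and Gm26128 (chr11:65626394-65626503, plus strand) are near copies of it. Among U5-length copies, the named gene Rnu5g (chr9:65201726-65201841, minus strand) lies beside Gm25313 (chr9:65196572-65196687, minus strand), and the most abundant copy is Gm24871 (chr1:171503048-171503163, minus strand). The 5 most abundant U5-length copies share their first 70 of 116 bases, so that reads of the 5′ part cannot be assigned to 1 copy by sequence.

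U4-length copies are shown because they belong to different RNAs. Capitals mark the letters GCAGTGG in the U4 copy Gm24265 (chr5:115489459-115489599, plus strand), the longest run shared with the U2 gene Rnu2-10 in Gm24840 (chr5:123628201-123628347, plus strand) and the longest run shared with the U1 gene Rnu1a1 in Gm24621 (chr4:129458351-129458490, plus strand).
Gm24265: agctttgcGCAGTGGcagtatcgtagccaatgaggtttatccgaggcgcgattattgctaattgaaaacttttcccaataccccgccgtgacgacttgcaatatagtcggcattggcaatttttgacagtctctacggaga
Gm24840: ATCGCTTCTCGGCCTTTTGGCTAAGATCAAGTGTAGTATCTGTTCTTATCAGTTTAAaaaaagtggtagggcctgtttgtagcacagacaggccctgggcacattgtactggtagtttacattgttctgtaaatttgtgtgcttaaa
Gm24621: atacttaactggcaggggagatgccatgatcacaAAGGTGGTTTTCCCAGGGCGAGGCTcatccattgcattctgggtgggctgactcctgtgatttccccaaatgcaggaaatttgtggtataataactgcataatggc

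The length labels were checked against sequence. At 80% identity over at least 50% of the copy, 252 of 253 U6-length copies matched a named U6 gene. Copies that matched at 95% held 80.7% of U6-length EV reads and 87.0% of U6-length cellular reads. The exception, Gm24890, matched U11, an snRNA of the minor spliceosome. The letters ACAGAGA stood on the sense strand of 241 of 253 U6-length copies (95.3%), of 261 of 536 U6-length genes with fewer than 10 reads (48.7%) and of 582 of 1382 snRNA genes with a sequence (42.1%). Of 13 U5-length copies, 11 matched Rnu5g at 80% identity and 5 at 95%. Exactly these 11 held CCTTTTA, which occurred in no other snRNA gene (11 of 1382, 0.796%). The U5-length label was not met by Gm26203, which matched U6, and by Gm24251, which matched no named gene. For U4 the table names no gene, and Gm24265 served as reference, a choice made after the sequences had been seen. By this reference 4 of 8 U4-length copies were U4, namely Gm24265, Gm24407, Gm25899 and Gm25135. Gm23502 matched U12, Gm24621 and Gm22126 matched U1, and Gm24840 shared its first 57 bases with the U2 gene Rnu2-10. GCAGTGG was found in only 2 of the 8 U4-length copies, and in 24 of 1382 snRNA genes (1.74%). Gm24840 alone held 81.7% of U4-length EV reads and 88.4% of U4-length cellular reads, against 11.4% and 8.67% for the 4 U4 copies, so the U4-length sum is mainly Gm24840 and is not read as U4.

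In all, 158 of 274 copies overlapped no other annotated gene and 5 overlapped an exon of another gene on the same strand. One of the 5 is Gm24871, which lies in an exon of the antisense gene B930036N10Rik. EV libraries held 410968 to 3053774 counted reads, of which 1014 to 7089 fell on the chosen copies. Libraries from cells held 12427662 to 42065263, with 73692 to 719708 on these copies. Muscle miR-1a-3p made up 0.352 to 7.20% of miRNA reads in the 6 libraries of replicate 3 and at most 0.0185% in the other 12. miR-21a-5p, which is abundant in myeloid cells, made up 24.1 to 65.5% over all libraries. The other myeloid miRNA looked at, miR-223-3p, miR-142a-3p, miR-146a-5p and miR-155-5p, were far lower. They reached at most 0.0810, 0.888, 0.378 and 0.840% in EV and 0.0203, 0.282, 0.319 and 0.525% in cells. LPS-EV replicate 2 was the smallest library, with 52.3% rRNA reads.

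The first comparison asks how the copies were distributed between EV and their parent cells. U6-length and U5-length copies took a smaller share of snRNA reads in EV than in cells in 9 of 9 pairs. The U4-length share, mainly Gm24840, did not pass the test. U6-length copies held 1.86, 2.20 and 1.06% of snRNA reads in control-EV, 1.72, 3.56 and 0.457% in LPS-EV and 1.87, 1.70 and 0.449% in VitD3-EV. In cells they held 9.23, 7.26 and 3.45% in control-DC, 7.98, 6.16 and 3.36% in LPS-DC and 10.2, 8.97 and 9.83% in VitD3-DC. The highest EV share, in LPS-EV replicate 2, thus lay just above the lowest cellular shares, and both are in different pairs. Across pairs, the log2 ratio of EV to cells was -2.32 ± 0.33 (SE, n = 9 pairs; adjusted p = 0.00586, two-sided exact sign-flip test over 3 length groups), and it ranged from -4.45 to -0.79. The 9 pairs come from 3 experiment days and are not independent, so this p takes the spread between pairs for that between days. EV shares of replicate 3 were the lowest in each group. With the 3 pairs of a day averaged, the ratio was -3.01 to -1.64 and was below 0 on 3 of 3 days, but a sign-flip test over 3 days cannot give a p below 0.25 (exact p = 0.25).

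U5-length copies held 9.28, 9.40 and 7.99% in control-EV, 8.40, 11.5 and 3.98% in LPS-EV and 9.96, 10.6 and 5.54% in VitD3-EV. They held 47.4, 26.0 and 23.6% in control-DC, 40.7, 26.3 and 24.4% in LPS-DC and 41.1, 30.8 and 34.9% in VitD3-DC. All 9 EV libraries lay below all 9 cellular libraries. The log2 ratio was -1.97 ± 0.18 (SE, n = 9 pairs; adjusted p = 0.00586, exact sign-flip test), and the unadjusted p of 0.00391 is the smallest that 9 pairs can give for both groups. Averaged by day it was -2.28 to -1.40, below 0 on 3 of 3 days, with the same limit on p.

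U4-length copies held 0.237 to 0.879% in EV (median 0.514%) and 0.281 to 0.631% in cells (median 0.445%). These ranges overlapped, and the log2 ratio was 0.28 ± 0.23 (SE, n = 9 pairs; adjusted p = 0.246, exact sign-flip test). It fell to -0.03 without replicate 1 and rose to 0.65 without replicate 3, where it passed the test (adjusted p = 0.0312, the smallest that 6 pairs can give). The 4 copies that are U4 by sequence held 0.0228 to 0.220% in EV and 0.0301 to 0.0837% in cells. Their log2 ratio was 0.72, with 8 of 9 pairs higher in EV, and it did not pass the test either (adjusted p = 0.0781, exact sign-flip test).

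For comparison, U1-length genes held 8.78 to 27.1% of snRNA reads in EV and 2.56 to 6.49% in cells, and U2-length genes 50.5 to 82.5% and 34.1 to 64.7%. Shares of 1 class sum to a whole, so a larger share of 1 RNA lowers that of the others. The widest 95% Wilson interval of a single EV share reached 0.456 percentage points to either side for U6-length, 0.782 for U5-length and 0.231 for U4-length copies, and covers counting error only.

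**Figure D1:**
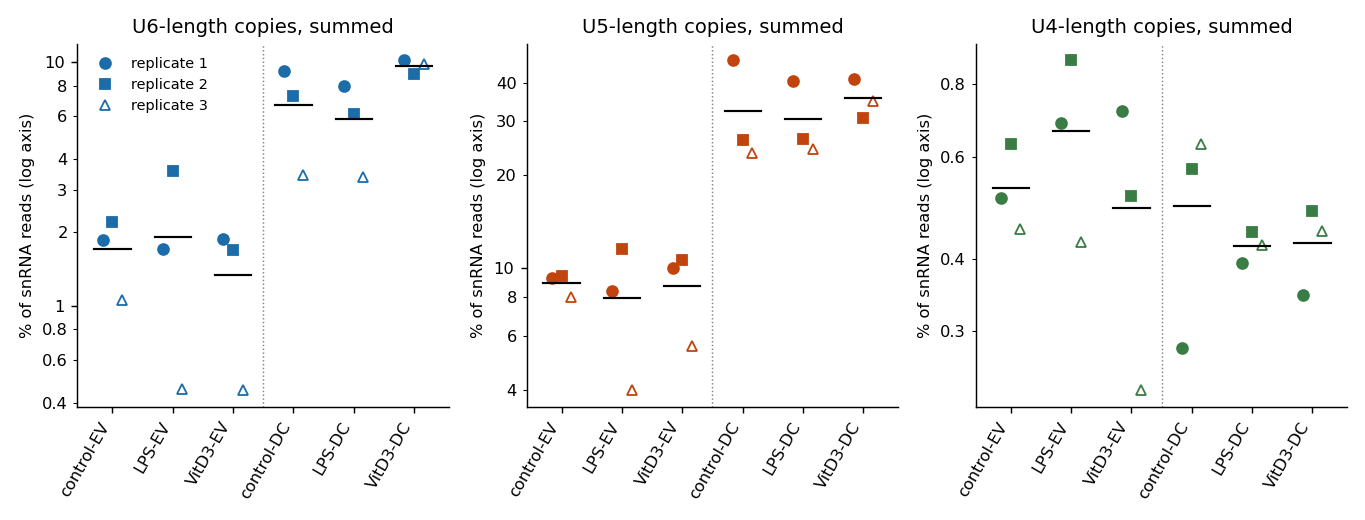
Share of snRNA reads (%, log axis) of the summed U6-length, U5-length and U4-length copies in the 6 groups, with a point per library (symbol by replicate number), a black line at the group mean and a dotted line between EV and DC. U6-length EV points lie between 0.449 and 3.56% and cellular points between 3.36 and 10.2%, whereas U4-length points of EV and cells overlap.

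At the level of single copies, 131 of 274 copies were lower in EV than in cells and 1 was higher at an FDR below 0.05 (edgeR's quasi-likelihood test over 377 snRNA genes, with culture as a block). This fit, too, takes the 9 pairs as independent, although they come from 3 experiment days. The FDR and SE of single copies, here and below, thus measure the spread between pairs and not that between days. Among all 377 genes tested, 37.7% were lower and 9.81% higher. The share of lower copies was 47.4% for U6-length (120 of 253) and 84.6% for U5-length (11 of 13). Among the U4-length copies 0 of 8 were lower and 1 was higher. EV libraries were shallow for these genes. Of 253 U6-length copies, 87 had no read in any EV library and 11 had reads in all 9, whereas in cells 0 had no reads and 169 had reads in all 9. Copies thus passed the threshold of 10 reads mainly through cells, since 252 of the 253 had at least 10 cellular reads and 35 at least 10 EV reads, and 28 of the 120 called had no EV read. The counts and medians of single copies are therefore descriptions, from which no direction is drawn for the groups. The fitted log2FC had a median of -3.62 over the chosen copies and -2.90 over all genes tested, and with DESeq2 -1.41 and -0.66. With copies without EV reads set to the bound of 3 reads over the group, these medians were -2.49 and -1.28. The reads were concentrated in few copies, since the 3 most abundant U6-length copies held 44.3% of U6-length EV reads and 35.2% of cellular reads, and the 5 most abundant U5-length copies 95.8% and 96.1%. Without replicate 3, whose libraries carried muscle miRNA, 98 copies were lower and 1 higher. Without replicate 1 the counts were 79 and 0.

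**Figure D2:**
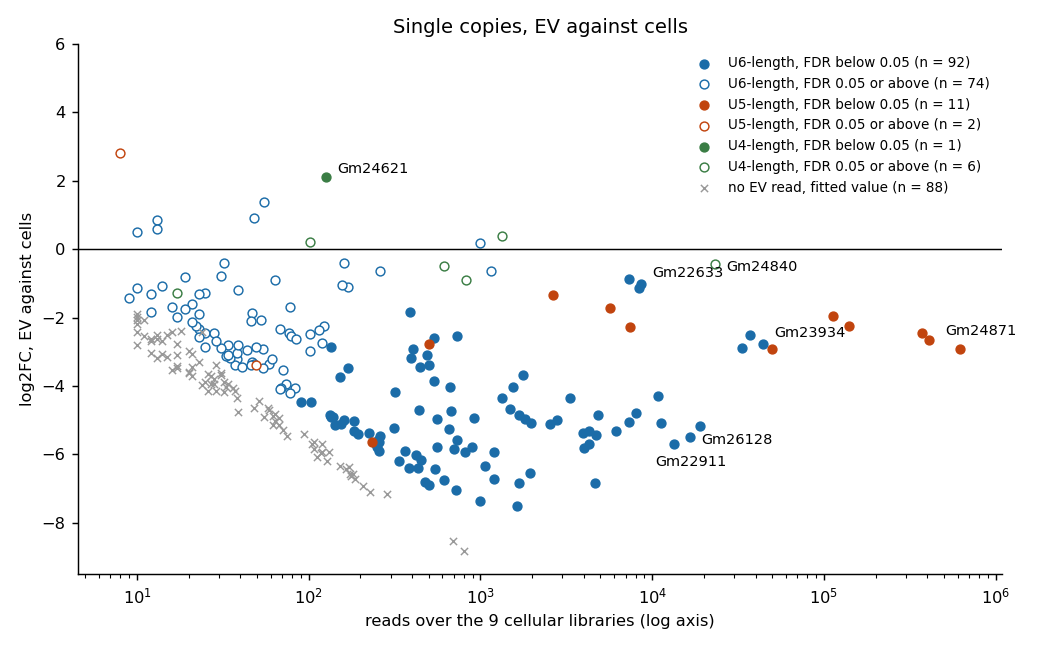
log2FC of EV against cells (vertical axis) for each of the 274 copies against its reads over the 9 cellular libraries (log axis), coloured by length group and filled where FDR was below 0.05. Crosses mark 88 copies without EV reads, whose fitted value is no measured ratio. The U4-length Gm24840, with 23211 cellular reads, lies at -0.44. The U6-length Gm22911 and Gm26129, with 13355 and 4636 cellular reads, lie at -5.70 and -6.85.

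U6-length copies with many cellular reads differed widely in EV. Gm25829, which has the Rnu6 sequence, had 207, 54 and 146 reads in control-EV, 109, 30 and 71 in LPS-EV and 88, 35 and 25 in VitD3-EV. In cells it had 4337, 3760 and 2242 reads in control-DC, 6710, 4842 and 7079 in LPS-DC and 3221, 2729 and 2300 in VitD3-DC. As RPM of snRNA reads this was 2888 ± 731 in control-EV and 7306 ± 3452 in control-DC (SD, n = 3). It was lower in EV in 9 of 9 pairs, by RPM and after TMM scaling, with a log2FC of -2.51 (SE 0.33, edgeR FDR 3.31e-13). Gm23934 and Gm22360, with the same letters, had a log2FC of -2.76 and -2.89.

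Gm26128, a near copy on chromosome 11, had 9, 5 and 17 reads in control-EV, 1, 0 and 6 in LPS-EV and 2, 0 and 12 in VitD3-EV. Its cellular reads were 2229, 1398 and 1275 in control-DC, 1103, 1290 and 5913 in LPS-DC and 1046, 410 and 1944 in VitD3-DC. It was the copy with the lowest FDR, with a log2FC of -5.48 (SE 0.44, edgeR FDR 1.62e-31) and 0 of 9 pairs higher in EV. Gm22911, Gm25516, Gm25672 and Gm24856 followed with a log2FC of -5.70, -5.17, -5.08 and -5.04, each lower in EV in 9 of 9 pairs.

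Gm22633 on chromosome 1 had 126, 53 and 35 reads in control-EV, 94, 38 and 29 in LPS-EV and 78, 14 and 17 in VitD3-EV. Its cellular reads were 738, 948 and 826 in control-DC, 2229, 877 and 735 in LPS-DC and 1132, 768 and 384 in VitD3-DC. With fewer cellular reads than Gm26128 it thus had several times its EV reads. Its log2FC was -1.03 (SE 0.34, edgeR FDR 0.00546), and that of Gm22260 -0.86 (SE 0.34, edgeR FDR 0.0238). Each was lower in EV in 7 of 9 pairs after TMM scaling but in 5 of 9 by RPM of snRNA reads, so that their direction depended on the scaling. Both calls were lost with scaling by the class total (log2FC -0.43 and -0.26), with the filterByExpr filter (-0.54 and -0.37) or a minimum of 1 read (-0.69 and -0.52), without replicate 1 (-0.99 and -0.78), without LPS-DC replicate 3 (-0.74 and -0.60) and without VitD3-DC replicate 2 (-0.65 and -0.47). That of Gm22260 was also lost with TMM over all RNA classes (-0.67), without the block, without replicate 2 or 3 and without LPS-EV replicate 1, LPS-DC replicate 1 or VitD3-DC replicate 3 (-0.87 to -0.71). At the named gene Rnu6, 0 EV reads and 120 cellular reads were counted. These counts are at least 4.23-fold lower in EV against a floor of 3 reads over the 9 EV libraries. Its sequence is shared by 43 copies with 2189 EV reads in all, so this gives no level of the Rnu6 RNA. Its call at an FDR below 0.05 was lost with DESeq2, without replicate 1, 2 or 3 and without control-EV or control-DC replicate 1. The named pseudogene Rnu6-ps2 had 13 EV reads and 156 cellular reads (log2FC -1.03, SE 0.76, edgeR FDR 0.27).

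Copies with identical letters were compared because their reads cannot be told apart by sequence. The Rnu6 sequence is shared by 43 copies on many chromosomes, and their totals ran from 104 to 44930 reads. The first 3 in genome order, Gm25829, Gm23934 and Gm22360 on chromosome 1, held 93.0% of the EV reads and 73.3% of the cellular reads of the 43. Their share was 82.1 to 97.0% in the single EV libraries and 62.3 to 83.4% in the cellular libraries, and it was higher in EV in 9 of 9 pairs. Their EV reads were 2036 against 114862 cellular reads, and those of the other 40 were 153 against 41908. The log2FC of the first 3, -2.89 to -2.51, was above that of each of the 40. Among the 40, the 5 copies with at least 10 EV reads (Gm25583, Gm25405, Gm22295, Gm25127 and Gm25869) had a log2FC of -5.44 to -4.78, and the 23 with 1 to 9 EV reads -7.36 to -2.90. Of the latter, Gm24803, Gm25709, Gm25790 and Gm24873 came nearest to the first 3, with 6, 6, 5 and 4 EV reads and a log2FC of -2.90, -3.10, -3.45 and -3.85. Where a read fits several places, the aligner could write at most 3 alignments per read. Its part in this pattern was not tested.

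**Figure D3:**
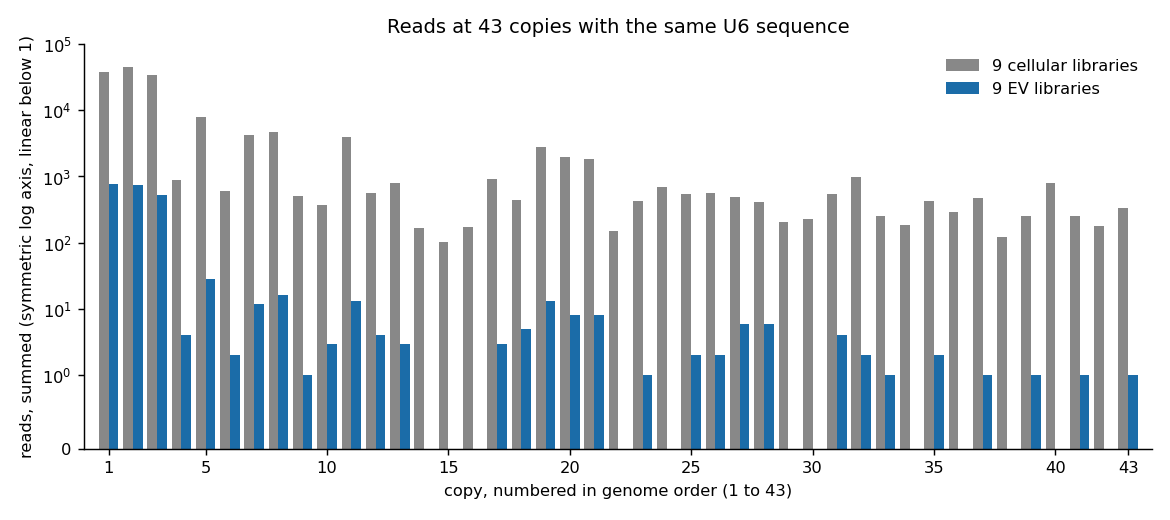
Reads summed over the 9 cellular (grey) and the 9 EV libraries (blue) at each of the 43 copies with the Rnu6 sequence, numbered in genome order, on a symmetric log axis that is linear below 1. The first 3 copies have 33462 to 44180 cellular reads and 521 to 765 EV reads, and no other copy exceeds 8024 and 28.

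Chromosome 1 as a whole holds 23 U6-length copies, which include these 3. The others are not identical to Rnu6, but some are near copies of U6. Identity was 99.1% for Gm22307, 97.2% for Gm22633 and 92.5% for Gm22260. How far reads of such near copies can be assigned to 1 copy was not tested. The 23 held 81.4% of the EV reads and 47.1% of the cellular reads of the group, and their share was higher in EV in 9 of 9 pairs. They had 3736 EV reads and 153805 cellular reads, and the 230 copies elsewhere had 855 and 172644. Among copies with at least 10 EV reads, the median log2FC was -1.09 for the 10 on chromosome 1 and -4.84 for the 25 elsewhere. The ranges overlapped, with -4.30 to 1.37 on chromosome 1 and -6.85 to 0.92 elsewhere. Gm24182 on chromosome 1, with 54 EV reads and 10872 cellular reads, had the -4.30, whereas Gm25473 on chromosome 5 and Gm25380 and Gm24890 on chromosome 14 had 0.92, -0.42 and -0.63 with 10 to 21 EV reads. In genome order Gm24182 was number 51 of the U6-length genes. The other chromosome 1 copies with at least 10 EV reads were numbers 2 to 30. These are descriptions without a test, since the split was noticed in these data. The summed U6-length share adds all copies, however reads were divided among them.

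The 5 most abundant U5-length copies, which share their first 70 of 116 bases, differed less among themselves. The 11 called U5-length copies had a log2FC of -5.65 to -1.34. Gm24871, the most abundant, had 1842, 537 and 1445 reads in control-EV, 1020, 249 and 945 in LPS-EV and 1117, 436 and 389 in VitD3-EV. In cells it had 77564, 44058 and 51111 reads in control-DC, 80608, 56716 and 215419 in LPS-DC and 38839, 22328 and 33744 in VitD3-DC. As RPM of snRNA reads this was 27497 ± 6290 in control-EV and 118289 ± 51482 in control-DC (SD, n = 3). Its log2FC was -2.92 (SE 0.29, edgeR FDR 1.32e-21), followed by Gm25099 with -2.67, Gm23143 with -2.45, Rnu5g with -2.26 and Gm25313 with -1.96, and each was lower in EV in 9 of 9 pairs. Rnu5g, the named U5 gene, had 306, 79 and 762 in control-EV, 157, 38 and 658 in LPS-EV and 177, 84 and 611 in VitD3-EV. Its cellular reads were 10411, 4729 and 14808 in control-DC, 10954, 7729 and 70616 in LPS-DC and 6099, 2858 and 10962 in VitD3-DC. Unlike Gm24871, it had more EV reads in replicate 3 than in replicates 1 and 2 of each group. The share of Gm24871 in U5-length reads was lower in EV than in cells in 9 of 9 pairs, by 2.41 to 19.1 percentage points. The U5-length copies not called, Gm26203 and Gm24251, are the 2 without U5 sequence and had 1 and 7 EV reads.

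The makeup of U5-length reads moved with replicate number. Rnu5g and Gm25313, neighbours in an intron of Parp16 on the opposite strand, together held 8.96 to 13.9% of U5-length reads in EV of replicates 1 and 2 and 26.4 to 42.8% in EV of replicate 3. In cells they held 7.83 to 10.3% in replicates 1 and 2 and 17.9 to 20.4% in replicate 3. The 6 libraries of replicate 3 thus lay above the other 12. They were sequenced in the run labelled 2, came from another experiment day and carried muscle miR-1a-3p, which cannot be told apart. The labels disagree on the run of VitD3-DC replicate 2, which was within the lower range.

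**Figure D4:**
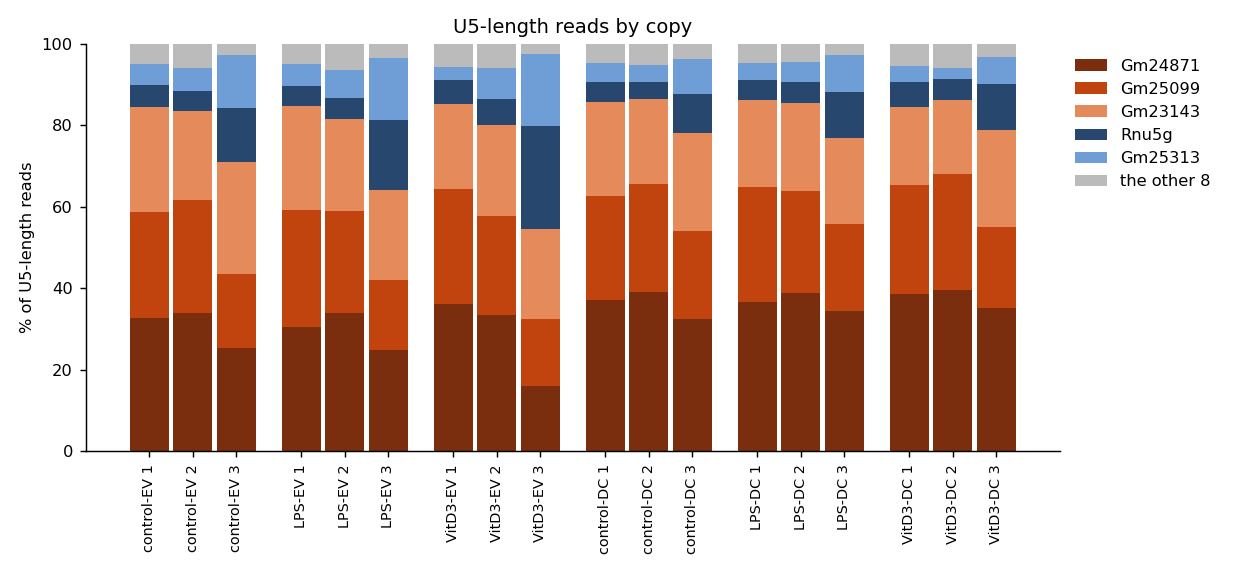
Share of U5-length reads (%) taken by the 5 most abundant copies and the other 8 in each of the 18 libraries, as stacked bars. The blue part, Rnu5g and Gm25313, is larger in every replicate 3 library (17.9 to 42.8%) than in replicates 1 and 2 (7.83 to 13.9%).

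Of the U4-length copies, Gm24840 had 256, 77 and 283 reads in control-EV, 213, 39 and 362 in LPS-EV and 155, 48 and 90 in VitD3-EV. It had 1025, 2253 and 3936 reads in control-DC, 1538, 2133 and 9818 in LPS-DC and 692, 747 and 1069 in VitD3-DC. Its log2FC was -0.44 (SE 0.32, edgeR FDR 0.265). It was 0.16 with scaling by the class total and -0.89, called lower, with 1 entry per distinct sequence (edgeR FDR 0.00722), so no direction is given. The U4 copy Gm24265 had 22, 8 and 22 reads in control-EV, 28, 11 and 27 in LPS-EV and 21, 10 and 6 in VitD3-EV. It had 91, 77 and 113 reads in control-DC, 271, 119 and 472 in LPS-DC and 53, 58 and 82 in VitD3-DC. The log2FC was 0.39 (SE 0.36, edgeR FDR 0.381). It was called higher in EV with scaling by the class total (1.00, edgeR FDR 0.0259) and with the filterByExpr filter (0.89, edgeR FDR 0.0164), and was -0.042 with 1 entry per distinct sequence. It was higher in EV in 8 of 9 pairs by RPM of snRNA reads and in 5 of 9 after TMM scaling. Its neighbour Gm24407 had 7, 4 and 4 reads in control-EV and 51, 50 and 76 in control-DC, with a log2FC of -0.90 (SE 0.44, edgeR FDR 0.0845). It was called lower by the likelihood ratio test (edgeR FDR 0.0366) and with 1 entry per distinct sequence (-1.29, edgeR FDR 0.00731). However, it was lower in EV in 5 of 9 pairs by RPM of snRNA reads and in 8 of 9 after TMM scaling, so no direction is given. The U12-like Gm23502 had a log2FC of -0.48 (SE 0.42, edgeR FDR 0.349). It was higher in EV in 6 of 9 pairs by RPM of snRNA reads and in 4 of 9 after TMM scaling.

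The 1 copy called higher in EV was Gm24621, whose sequence matched U1. It had 16, 13 and 1 reads in control-EV, 14, 3 and 0 in LPS-EV and 32, 1 and 0 in VitD3-EV, against 14, 11 and 4 in control-DC, 22, 21 and 3 in LPS-DC and 38, 11 and 2 in VitD3-DC. Reads were lowest in replicate 3 throughout. The log2FC was 2.12 (SE 0.49, edgeR FDR 4.84e-05), and it was higher in EV in 7 of 9 pairs. The call was lost without replicate 1 (log2FC 1.43), without VitD3-EV replicate 1 (1.38) or without VitD3-DC replicate 1 (1.39). Of the other snRNA, 28 of 37 U1-length genes were higher in EV and 0 lower (median log2FC 1.52), and 2 of 18 U2-length genes were higher and 3 lower. The named genes Rnu7, Rnu11 and Rnu12 were lower (3 of 3).

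The next comparisons ask whether LPS or VitD3 treatment of the DC changed these copies. No difference in a summed share passed a test, and 0 single copies reached an FDR below 0.05 in EV or in cells. LPS and VitD3 were compared with the same control libraries. With 3 libraries against 3, the exact permutation test cannot give a p below 0.1.

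In EV, the U6-length share was 1.71 ± 0.587% in control-EV, 1.91 ± 1.56% in LPS-EV and 1.34 ± 0.777% in VitD3-EV (SD, n = 3). The U5-length share was 8.89 ± 0.779, 7.95 ± 3.77 and 8.69 ± 2.75%, and the U4-length share 0.530 ± 0.0919, 0.664 ± 0.226 and 0.490 ± 0.241%. Groups overlapped in each case. The log2 ratios to control-EV for U6, U5 and U4-length were -0.21, -0.29 and 0.28 with LPS and -0.53, -0.08 and -0.24 with VitD3 (adjusted p = 0.982 to 1, exact permutation test, n = 3). The SE of these ratios, taken over the differences of the 3 days, was 0.18 to 0.55. The permutation test does not use the pairing by day, so its p and this SE measure different spreads. With this number of libraries the test cannot pass, whatever the size of a change.

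In cells, the U6-length share was 6.65 ± 2.94% in control-DC, 5.83 ± 2.33% in LPS-DC and 9.66 ± 0.621% in VitD3-DC (SD, n = 3). LPS-DC lay below control-DC on 3 of 3 days, but the groups overlapped (log2 ratio -0.16 ± 0.06, SE over days, p = 0.7, adjusted p = 0.982, unpaired exact permutation test). VitD3-DC exceeded control-DC on 3 of 3 days, but the groups overlapped (log2 ratio 0.65 ± 0.43, SE over days, p = 0.2, adjusted p = 0.982, unpaired exact permutation test). The ratio rested on replicate 3 and was 0.22 without it. As a share of all counted reads it was -0.30, and there the U6-length ratio of LPS-DC to control-DC was 0.50 against -0.16 as a share of snRNA reads. The U5-length share was 32.3 ± 13.1, 30.5 ± 8.93 and 35.6 ± 5.21%, and the U4-length share 0.494 ± 0.187, 0.421 ± 0.0256 and 0.426 ± 0.0708%, with groups that overlapped. The difference in effect between EV and cells did not pass a test for LPS (log2 -0.05, -0.24 and 0.43 for U6, U5 and U4-length) or for VitD3 (-1.18, -0.29 and -0.10). The largest, U6-length with VitD3, had an unadjusted p of 0.1, the smallest that the exact permutation test allows, and an adjusted p of 0.6 over 6 comparisons. It was -0.066 as a share of all counted reads and 0.10 as a share of reads other than rRNA.

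Single copies were then tested by treatment with edgeR. With LPS, 0 of 50 copies tested in EV had an FDR below 0.05 (0% of the 123 snRNA genes tested), and 1 had an unadjusted p below 0.05 (1.63% of all genes). That copy was Gm26128, with 9, 5 and 17 reads in control-EV and 1, 0 and 6 in LPS-EV (log2FC -2.13, SE 1.09, edgeR FDR 0.934). With VitD3, 0 of 50 had an FDR below 0.05 (0% of all genes) and 1 an unadjusted p below 0.05 (6.5% of all genes). That copy was Gm26129, with 4, 1 and 8 reads in control-EV and 0, 0 and 0 in VitD3-EV (edgeR FDR 0.644). LPS-EV against VitD3-EV gave 0 copies by FDR (0.813% of all genes) and 0 by unadjusted p (5.69%).

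In cells, LPS gave 0 of 272 copies with an FDR below 0.05 (0% of the 373 genes tested) and 3 with an unadjusted p below 0.05 (1.61% of all genes), namely Gm24705, Gm24538 and Gm22975. Each of these had at most 17 reads in any library of the comparison. VitD3 gave 0 by FDR (0%) and 4 by unadjusted p (2.95%), namely Gm24621, Gm23453, Gm22129 and Gm25173 with a log2FC of 1.36, 1.07, 1.37 and -1.84 (edgeR FDR 0.998 for each). Gm23453, a U6-length copy on chromosome 1, had 96, 130 and 61 reads in control-DC and 373, 64 and 46 in VitD3-DC (log2FC 1.07, SE 0.50). Its reads did not separate the groups. LPS-DC against VitD3-DC gave 0 by FDR (0.536% of all genes) and 16 by unadjusted p (9.38%), 12 of them lower in LPS-DC. The lowest FDR among these copies was 0.257, for Gm22129, with 5, 7 and 8 reads in LPS-DC and 8, 8 and 11 in VitD3-DC (log2FC -2.03, SE 0.68). Gm23453, Gm24538, Gm22822 and Gm22823 followed with a log2FC of -1.41, -3.44, -1.15 and -1.22. Of these, Gm22822 had 207, 143 and 436 reads in LPS-DC and 177, 126 and 218 in VitD3-DC. With TMM factors over all RNA classes 1 copy, the U4 copy Gm24407, reached an FDR of 0.0365 there (log2FC 1.89, SE 0.55).

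For the most abundant copies, errors of the treatment effects were small in cells, and no effect passed the test. With LPS, the log2FC in cells was 0.11 ± 0.20 for Gm24871, 0.12 ± 0.21 for Gm25099 and -0.01 ± 0.22 for Gm23143 (SE, n = 3 days). With VitD3 it was 0.01 ± 0.20, -0.01 ± 0.21 and -0.21 ± 0.22. For the U6-length Gm25829, Gm23934 and Gm22360 the log2FC with VitD3 was 0.61 ± 0.31, 0.56 ± 0.31 and 0.60 ± 0.32 in cells and -0.71 ± 0.41, -0.57 ± 0.41 and -0.73 ± 0.43 in EV (edgeR FDR 0.794 to 0.998). The U4 copy Gm24265 had a log2FC of 1.01 ± 0.55 with LPS in EV and 0.74 ± 0.46 in cells (edgeR FDR 0.934 and 0.973). The difference in treatment effect between EV and cells gave 0 of 274 copies by FDR for LPS (0% of the 377 genes tested) and for VitD3 (0%). By unadjusted p it gave 1 copy for LPS (1.06% of all genes) and 5 for VitD3 (2.39%). Among the latter, Gm26129 had no read in VitD3-EV and Gm23453 had a difference of -2.04 ± 1.00 (SE, edgeR FDR 1). DESeq2 also called 0 copies by FDR in each treatment comparison, with 0 to 10 copies at an unadjusted p below 0.05.

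**Figure D5:**
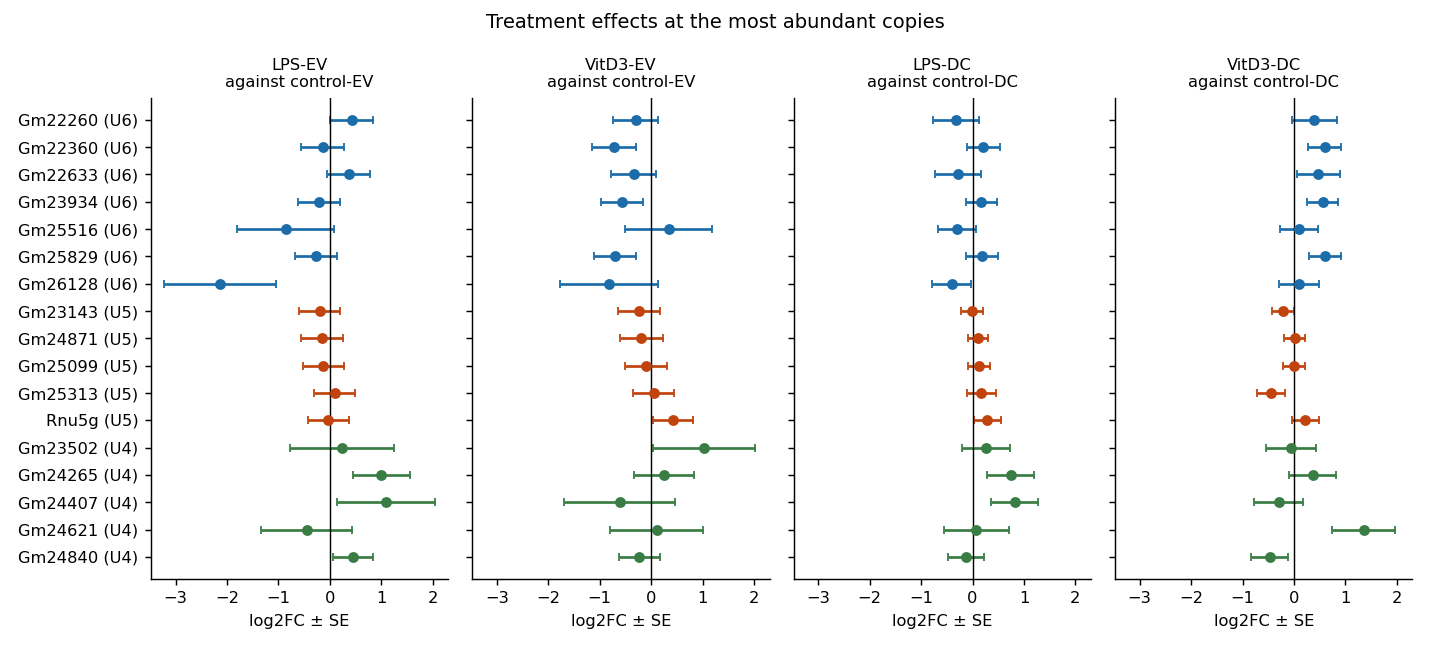
log2FC ± SE of LPS and VitD3 against control, in EV and in cells, for the copies with most reads in each length group (U6-length blue, U5-length red, U4-length green). FDR is 0.794 or higher at each point, and intervals are wider in EV, where counts are lower, than in cells.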

How the data were processed

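Small RNA from EV and cells was sequenced in 18 libraries, 3 per group. The deposited table holds raw read counts per gene. The authors made them by trimming with cutadapt 1.8, aligning to mm10 with gsnap (at most 3 alignments per read) and counting by strand with HTSeq 0.6.1p1. Counting set no minimum alignment quality. Beyond these settings, the sources used here do not say how reads with several alignments were counted. Reads came from pooled size fractions after rRNA depletion.

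Genes of type snRNA with at least 10 reads in the libraries fitted were tested with edgeR 4.0.16 (quasi-likelihood test, TMM within snRNA, Benjamini-Hochberg FDR over all snRNA genes tested, R 4.3.3). Treatments were fitted within EV and within cells with the replicate number as a block, as in the study, where a number stands for an experiment day. Residuals of libraries with the same number correlated at 0.00325 to 0.696 in EV and -0.0432 to 0.465 in cells. Those with different numbers correlated at -0.746 to 0.586 in EV and -0.392 to 0.272 in cells, so the ranges overlapped. The median in EV was 0.408 for the same number and -0.366 for different numbers, and in cells 0.129 and -0.116. EV against cells was fitted over 18 libraries with culture as a block. On simulated counts, fitted values of copies with few EV reads fell below the simulated ones, so sums and copies with reads lead the text. The SE of a log2FC was taken from the F statistic. Sums were tested as log2 shares of snRNA reads by two-sided exact permutation or sign-flip tests. The study describes its triplicates as independent experiments on different days, and the treatments of 1 number share a day. The p-values measure the spread between these samples. No 2 libraries were duplicates. Copies were matched to named genes with BLAST 2.17.0 (1382 of 1384 genes had a sequence). U5-length and U6-length sequences are not reported here.

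Named copies are the 5 with most EV reads and the 5 with most cellular reads of each length group, genes with a name other than Gm, and per comparison those at an FDR below 0.05 (EV against cells, up to 5 per direction) or up to 5 of lowest unadjusted p below 0.05. Others named, among them the copies that share the Rnu6 sequence, were chosen after their values were seen. The copies and lists were chosen with earlier results of these data known. Alternatives were the likelihood ratio test, DESeq2 1.42.0, other scalings and filters, fits without the block, 1 entry per distinct sequence, other denominators, and leaving out replicates or libraries.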

Additional observations from a re-analysis of the deposited data

How the results depend on the processing

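The lower U6-length and U5-length shares in EV kept their direction and passed the test under each denominator, grouping and left-out replicate (adjusted p = 0.00586 to 0.0469, exact sign-flip test), with log2 ratios of -2.67 to -1.98 and -2.25 to -1.81 without 1 replicate. With the pairs of a day averaged, chosen after the data had been seen, the ratios were again -2.32 and -1.97, but no longer passed (adjusted p = 0.375, exact sign-flip test over 3 days). The median over U6-length copies was -3.88 and over U4-length copies -0.46. The U4-length ratio was -0.018 as a share of all counted reads and -0.029 to 0.65 without 1 replicate. For single copies lower in EV, 86 were called with filterByExpr (100 copies tested) and 79 to 130 without 1 replicate or library; 2 were called higher with the likelihood ratio test, DESeq2, no replicate block, class total or filterByExpr, and 0 to 1 without 1 replicate or library. Without the replicate block 149 were lower. The median log2FC of all genes was -2.90, and -2.78 with class total, -2.73 with TMM over all classes and -0.66 with DESeq2. Gm24840 was 0.16 with class total and 0.071 with filterByExpr, Gm23502 0.062 with class total and -1.03 to 0.063 without 1 replicate or library, and Gm24265 -0.042 with 1 entry per distinct sequence; by that setting Gm25173 was 0.012 in VitD3-DC against control-DC. LPS-DC against VitD3-DC gave 1 call with TMM over all classes and 0 otherwise.

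Treatment effects on sums cannot pass a test of 3 against 3, and their directions turned with the setting. As a share of all counted reads the log2 ratios were 0.019 (U6-length, LPS-EV), 0.078 (U5-length, VitD3-EV), 0.50, 0.61 and 0.51 (U6, U5 and U4-length, LPS-DC), -0.30 and -0.75 (U6 and U5-length, VitD3-DC), and for EV against cells by treatment -0.0018 (U4-length, LPS), 0.83 and 1.02 (U5 and U4-length, VitD3). As a share of reads other than rRNA they were 0.27 and 0.19 (U6 and U5-length, LPS-EV), 0.25 and 0.092 (U5 and U4-length, VitD3-EV), 0.49, 0.60 and 0.51 (LPS-DC), -0.30 and -0.75 (VitD3-DC), and 0.10, 1.00 and 1.19 (U6, U5 and U4-length by VitD3). With 1 entry per distinct sequence they were 0.00126 (U6-length, LPS-EV), 0.25 (U6-length by LPS) and 0.050 (U4-length by VitD3). With U4 copies by sequence alone they were 0.019 in VitD3-EV, 0.63 in LPS-DC and 0.46 in VitD3-DC. Medians over U4-length copies were 0.78 in LPS-DC, 0.78 in VitD3-DC and -0.35 by LPS. Without 1 replicate the ranges that turned were -0.66 to 0.29 and -0.58 to 0.072 (U6 and U5-length, LPS-EV), -0.21 to 0.14 and -0.61 to 0.10 (U5 and U4-length, VitD3-EV), -0.10 to 0.033 and -0.47 to 0.066 (U5 and U4-length, LPS-DC), -0.37 to 0.033 (U4-length, VitD3-DC), -0.54 to 0.51 and -0.49 to 0.17 (U6 and U5-length by LPS), and -0.58 to 0.12 and -0.24 to 0.068 (U5 and U4-length by VitD3). With the replicate block (sign-flip over 3 days, smallest p 0.25) the U6-length ratio in LPS-EV stayed at -0.21 (p = 0.75, exact), and the block changed no call of a sum. For single copies, leaving out the block ended the call of Gm22260 (log2FC -0.84). U5-length copies assigned to U5 numbered 11 at 80% and 5 at 95% identity. The causes were not tested. EV depth limits single copies: 88 had no EV read.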
